A study of Mus musculus with 25 samples.

Results

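Costimulatory receptors are surface proteins that add a signal to the one a T cell gets through its antigen receptor. The 10 genes described here were chosen by name: Tnfrsf18 (GITR), Tnfrsf4 (OX40), Tnfrsf9 (4-1BB), Tnfrsf1b (TNF receptor 2) and Cd27 of the TNF receptor superfamily, Icos and Cd28 of the immunoglobulin superfamily, the adhesion-type receptors Cd226 (DNAM-1) and Crtam, and Cd40lg (CD40 ligand), a TNF-family protein on activated T cells. Each was read from 1 transcript cluster, the set of array probes that reports a gene, and 9 of the 10 had a cluster among the 22206 tested. Cd27 was not analysed here.

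The study measured transcript levels in invariant natural killer T (iNKT) cells, T lymphocytes that recognise lipids on CD1d, sorted from mouse thymus. The mice were of the C57BL/6 strain and either wild type (WT), without the Hippo pathway kinase Mst1 (Mst1KO), or without both Mst1 and Mst2 (dKOMst), and the sources used here do not state their age or how the alleles were deleted. All sorted cells were TCRb-positive, bound the CD1d tetramer and lacked CD24. S1_S2 cells were of stages 1 and 2, without NK1.1 and without or with CD44, and S3 cells carried both CD44 and NK1.1. WT cells were measured on 6 S1_S2 and 7 S3 arrays, Mst1KO cells on 4 and 5, and dKOMst cells on 2 and 1. Levels are log2 values after RMA, on which a difference of 1 is a 2-fold change, and levels of different genes cannot be compared on this scale. The number of arrays limits the precision. No label says that the arrays of a group stem from separate animals, so a p-value here reflects only how these arrays scatter, which may be technical. A change can come from fewer cells of a type or from less RNA per cell, and these cannot be told apart in bulk RNA.

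Receptors of the TNF superfamily bind trimeric ligands and recruit TRAF adaptor proteins, which lead to NF-kB and MAP kinase signalling and to T cell survival. CD28 and ICOS bind members of the B7 family and signal through phosphoinositide 3-kinase, and DNAM-1 binds nectin-like proteins such as CD155, for which it competes with the inhibitory receptor TIGIT. iNKT cells develop into subsets that resemble helper T cells, of which NK1.1-positive stage 3 cells are mostly of the interferon-producing NKT1 kind.

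Sample titles carry numbers with a gap, which leaves a first range of 16 arrays and a second range of 9 arrays. All Mst1KO arrays lay in the first range and all dKOMst arrays in the second, while WT arrays of both stages lay in both, so every fitted difference allowed for the range with an additive term estimated from the WT arrays. That term passed the limma test for 1362 clusters and for 1 of the 9 receptor genes, Tnfrsf18, which read 0.29 ± 0.08 (SE) higher in the second range (adjusted p = 0.0374). Stk4, the gene of Mst1, read 9.22 to 9.4 on the Mst1KO S1_S2 arrays against 10.18 to 10.74 on the WT S1_S2 arrays. At S3 the Mst1KO arrays (9.43 to 10.13) overlapped the WT arrays (9.69 to 10.73), and the dKOMst arrays read 10.27 and 9.63 at S1_S2 and 10.08 at S3. The gene of Mst2 was not analysed here. A mean over 7 T cell markers, the CD3 chains and Zbtb16 among them, ran from 11.9 to 12.1 over the arrays. Mst1KO replicates 3 and 4 of each stage lacked signal from Y-linked genes (means of 4.74 to 4.84), which all other arrays had (7.05 to 8.02).

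The promoters of the TNF receptor genes are shown because these genes were called in different comparisons. Tnfrsf18 and Tnfrsf1b were called between the WT stages, Tnfrsf9 between Mst1KO and WT at S3, and Tnfrsf4 in neither. All 4 genes lie on chromosome 4, where Tnfrsf4 and Tnfrsf18 are direct neighbours. From the RefSeq table (GRCm38.p6), matched by symbol, 250 bases before to 50 after the start site are shown for 4 of the 9 measured genes. Tnfrsf9 has 2 start sites there, and Cd226 was left out of the search. The first Tnfrsf9 promoter is chr4:150919905-150920204 and the second is chr4:150927749-150928048, both on the plus strand. Tnfrsf18 is at chr4:156026072-156026371 and Tnfrsf4 at chr4:156013445-156013744, both on the plus strand, and Tnfrsf1b at chr4:145246821-145247120 on the minus strand. Capitals mark letters that match 1 of 4 motifs searched on both strands.
Tnfrsf9 promoter 1: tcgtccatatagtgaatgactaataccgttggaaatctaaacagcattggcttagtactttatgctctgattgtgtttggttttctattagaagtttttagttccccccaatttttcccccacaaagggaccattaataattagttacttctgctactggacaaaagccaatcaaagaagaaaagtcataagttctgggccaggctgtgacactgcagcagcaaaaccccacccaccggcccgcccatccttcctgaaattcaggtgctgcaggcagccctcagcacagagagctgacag
Tnfrsf9 promoter 2: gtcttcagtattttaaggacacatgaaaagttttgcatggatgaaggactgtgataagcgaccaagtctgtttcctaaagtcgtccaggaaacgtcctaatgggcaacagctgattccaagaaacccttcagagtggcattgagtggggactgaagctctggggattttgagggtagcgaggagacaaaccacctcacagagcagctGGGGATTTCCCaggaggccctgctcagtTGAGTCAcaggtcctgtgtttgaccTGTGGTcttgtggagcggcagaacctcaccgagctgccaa
Tnfrsf1b promoter: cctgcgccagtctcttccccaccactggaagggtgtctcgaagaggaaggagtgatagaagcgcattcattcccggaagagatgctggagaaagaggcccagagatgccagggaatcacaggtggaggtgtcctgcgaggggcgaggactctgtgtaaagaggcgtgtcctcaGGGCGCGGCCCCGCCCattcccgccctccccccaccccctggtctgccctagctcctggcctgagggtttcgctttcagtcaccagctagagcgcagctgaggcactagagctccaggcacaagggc
Tnfrsf18 promoter: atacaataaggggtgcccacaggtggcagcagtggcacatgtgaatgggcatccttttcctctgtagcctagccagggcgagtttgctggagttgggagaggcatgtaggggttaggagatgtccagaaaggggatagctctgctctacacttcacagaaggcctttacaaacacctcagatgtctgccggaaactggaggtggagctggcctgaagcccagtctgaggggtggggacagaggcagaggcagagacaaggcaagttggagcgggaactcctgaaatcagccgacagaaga
Tnfrsf4 promoter: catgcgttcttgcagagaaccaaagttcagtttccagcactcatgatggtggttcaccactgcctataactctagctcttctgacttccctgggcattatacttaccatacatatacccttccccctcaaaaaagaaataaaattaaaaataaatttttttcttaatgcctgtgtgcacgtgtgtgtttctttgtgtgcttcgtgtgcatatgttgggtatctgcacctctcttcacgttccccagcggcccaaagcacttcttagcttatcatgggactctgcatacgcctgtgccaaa

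The motifs were GGGNNNNNCC (NF-kB), TGANTCA (AP-1), TGTGGT (Runx) and TCACAC (T-box). Of 32851 promoters of this length in the table, 50.8% held the NF-kB letters, 7.81% the AP-1 letters, 16.8% the Runx letters and 14.5% the T-box letters. The second Tnfrsf9 promoter held the NF-kB letters at 2 overlapping positions, -43 and -42 from the start site, the AP-1 letters at -15 and the Runx letters at 11. The Tnfrsf1b promoter held the NF-kB letters at 3 overlapping positions, -77, -76 and -71. The promoters of Tnfrsf18 and Tnfrsf4 and the first Tnfrsf9 promoter held none of these letters. A match is a description of the sequence and not a measured binding site.

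**Figure D1:**
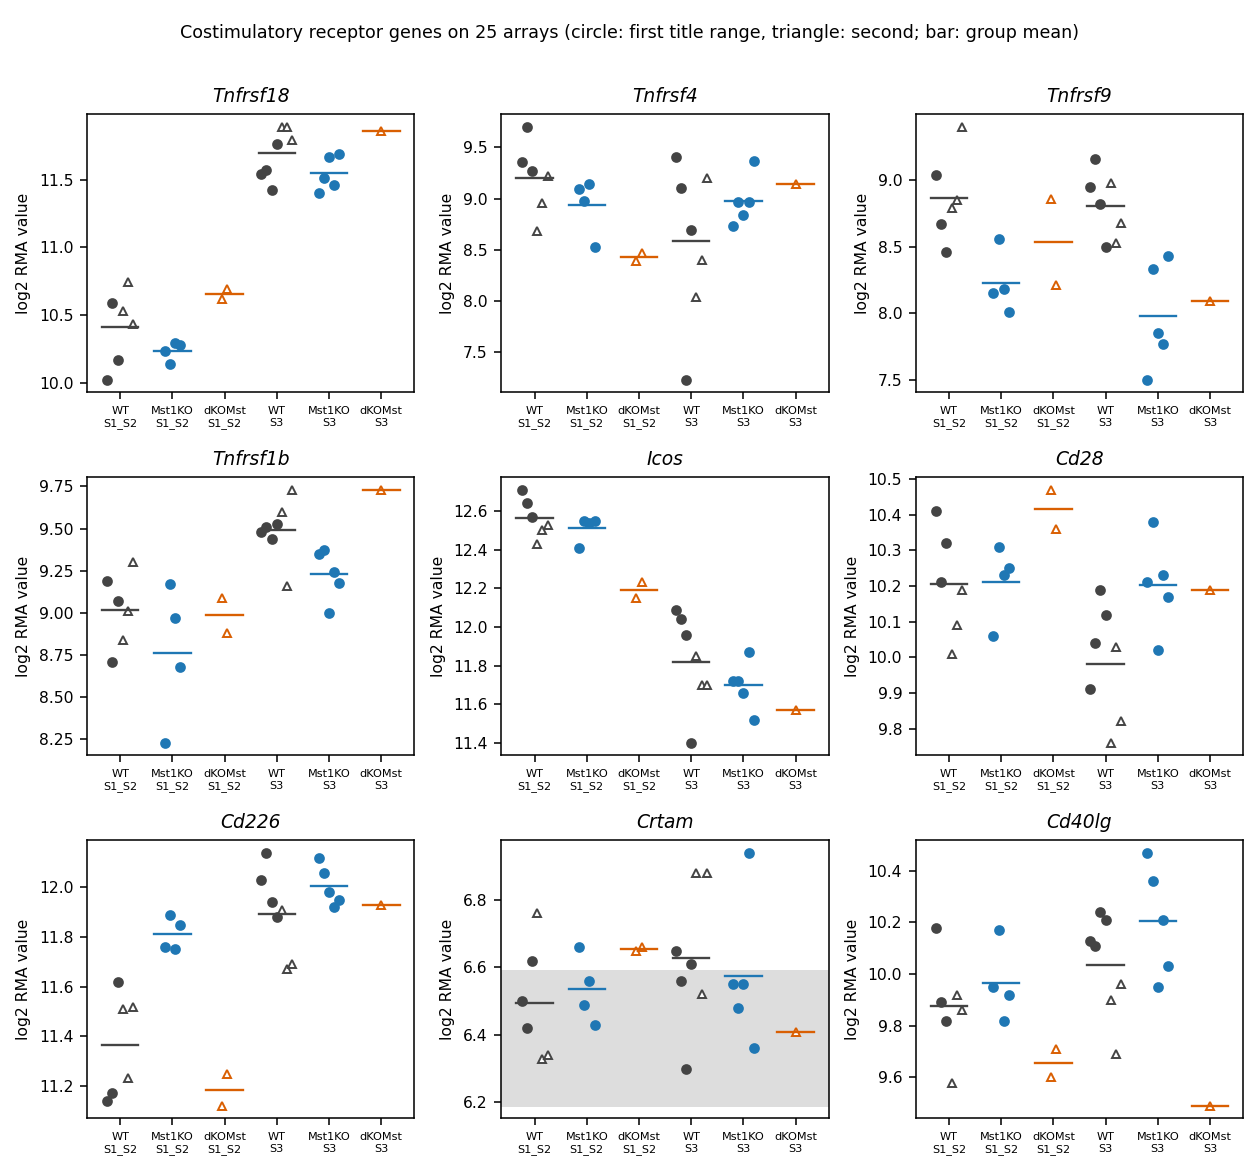
Log2 RMA level of the 9 measured costimulatory receptor genes on each of the 25 arrays, by genotype and stage; filled circles are arrays of the first title-number range, open triangles of the second, bars are group means, and the grey band for Crtam is the range of the arrays' negative-control medians (6.19 to 6.59). Tnfrsf18 and Icos separate S3 from S1_S2 arrays in opposite directions, and Tnfrsf9 is lower on the 5 Mst1KO S3 arrays than on the 7 WT S3 arrays.

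Between the stages of WT cells, 5 of the 9 measured genes differed, 3 higher and 2 lower at S3. Tnfrsf18 rose most, Cd226 and Tnfrsf1b rose less, and Icos and Cd28 fell. Of all clusters 16.9% were called in this comparison (limma, adjusted p under 0.05), 8.18% higher and 8.75% lower. The median log2 difference was 0.14 over the 9 genes and 0.01 over all clusters.

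Tnfrsf18, the gene of GITR, a receptor found on regulatory and activated T cells, read 10.02 to 10.74 (median 10.48) on the 6 WT S1_S2 arrays and 11.42 to 11.89 (median 11.76) on the 7 WT S3 arrays. The groups did not overlap, and this held for 6.68% of all clusters. The fitted log2 difference was 1.3 ± 0.08 (SE), 2.47-fold, with a limma adjusted p of 4.34e-11, and it was 1.31 within the first and 1.29 within the second title-number range. Mst1KO cells showed a like step: the 4 S1_S2 arrays read 10.23, 10.14, 10.29 and 10.28, and the 5 S3 arrays read 11.4, 11.51, 11.67, 11.46 and 11.69. All S3 arrays were above all S1_S2 arrays there too, while 14.1% of all clusters had no overlap, and the limma difference was 1.31 ± 0.1 (SE; adjusted p = 2.65e-09). On the dKOMst arrays Tnfrsf18 read 10.62 and 10.69 at S1_S2 and 11.86 at S3, each inside the range of the WT arrays of that stage. Genotype differences of Tnfrsf18 were small: Mst1KO minus WT was -0.03 (95% interval -0.25 to 0.19) at S1_S2 and -0.02 (-0.22 to 0.17) at S3, with limma adjusted p of 0.973 and 0.907. Over the 25 arrays, the profiles nearest to that of Tnfrsf18 were Efhd2, a calcium-binding protein gene, and Il10rb, a subunit of the interleukin 10 receptor. Their centred values differed from those of Tnfrsf18 by a mean of 0.15 and 0.17 on the log2 scale. Their rises between the WT stages, 1.31 ± 0.06 and 1.47 ± 0.1 (SE), follow from this choice by likeness on the same arrays.

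Tnfrsf4, the gene next to Tnfrsf18, did not follow it. OX40, its product, is induced on activated T cells. WT S1_S2 arrays read 8.68 to 9.7 (median 9.25) and WT S3 arrays 7.23 to 9.41 (median 8.69). The groups overlapped widely, with replicate 3 of WT S3, at 7.23, the lowest of all 25 arrays. The log2 difference was -0.64 ± 0.25 (SE), with a 95% interval of -1.15 to -0.12 and a limma adjusted p of 0.0854. It passed the test without WT S3 replicate 1 (-0.76, limma adjusted p = 0.0344) or without WT S3 replicate 7 (-0.79, adjusted p = 0.0265), and was -0.39 without replicate 3. Mst1KO S1_S2 arrays read 9.09, 8.98, 9.14 and 8.53, and Mst1KO S3 arrays 8.73, 8.97, 8.84, 8.97 and 9.37. These overlapped, with a stage difference of 0.04 (95% interval -0.58 to 0.65). The dKOMst arrays read 8.39 and 8.47 at S1_S2 and 9.14 at S3.

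Tnfrsf1b, the gene of the TNF receptor that is largely restricted to blood cells and endothelium, read 8.71 to 9.3 (median 9.04) on WT S1_S2 arrays and 9.16 to 9.73 (median 9.51) on WT S3 arrays. Most S3 arrays were higher, with an overlap formed by S3 replicate 6, at 9.16, and by S1_S2 replicates 1 and 6, at 9.19 and 9.3. It rose by 0.48 ± 0.13 (SE), 1.39-fold, with a limma adjusted p of 0.00853. Within the first title-number range the difference was 0.5 and within the second 0.45, neither past the test (limma adjusted p = 0.0903 and 0.163). In Mst1KO cells the S1_S2 arrays read 8.23, 9.17, 8.97 and 8.68 and the S3 arrays 9.35, 9.37, 9, 9.24 and 9.18. The difference was 0.47 ± 0.15 (SE; limma adjusted p = 0.0522), and it passed the test when Mst1KO S1_S2 replicate 2 was left out (0.6, adjusted p = 0.0124) and in several other settings. The dKOMst arrays read 9.09 and 8.88 at S1_S2 and 9.73 at S3.

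Tnfrsf9, the gene of 4-1BB, an inducible receptor of activated T and NK cells, differed between the WT stages by less than the spread between arrays. It read 8.46 to 9.4 (median 8.82) at S1_S2 and 8.5 to 9.16 (median 8.82) at S3. The S3 range lay inside the S1_S2 range, and the difference was -0.06 (95% interval -0.4 to 0.28, limma adjusted p = 0.877).

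Icos, the gene of a CD28-family receptor that supports helper cytokine production, read 12.43 to 12.71 (median 12.55) on WT S1_S2 arrays and 11.4 to 12.09 (median 11.85) on WT S3 arrays. All S3 arrays lay below all S1_S2 arrays, and 6.68% of all clusters had no overlap in either direction. It fell by 0.76 ± 0.09 (SE) on the log2 scale, 1.69-fold, with a limma adjusted p of 6.2e-07, and the difference was -0.77 and -0.74 within the first and the second title-number range. In Mst1KO cells the S1_S2 arrays read 12.41, 12.55, 12.54 and 12.55, and the S3 arrays 11.72, 11.72, 11.66, 11.87 and 11.52. These groups were separate as well, as they were for 14.1% of all clusters. The limma difference was -0.81 ± 0.1 (SE; adjusted p = 7.54e-06). On the dKOMst arrays Icos read 12.15 and 12.23 at S1_S2 and 11.57 at S3.

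Cd28 encodes the founding costimulatory receptor, lies with Ctla4 and Icos in a row on chromosome 1, and changed less than Icos. It read 10.01 to 10.41 (median 10.2) on WT S1_S2 arrays and 9.76 to 10.19 (median 10.03) on WT S3 arrays. The groups overlapped in part. It fell by 0.24 ± 0.07 (SE), 1.18-fold, with a limma adjusted p of 0.0188. Without WT S1_S2 replicate 1 the call was lost (limma adjusted p = 0.0554), as it was within each title-number range (-0.25 and -0.23). Mst1KO S1_S2 arrays read 10.06, 10.31, 10.23 and 10.25 and Mst1KO S3 arrays 10.21, 10.38, 10.02, 10.23 and 10.17. These overlapped, with a stage difference of -0.01 (95% interval -0.18 to 0.17).

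Cd226, whose product DNAM-1 promotes adhesion and killing by T and NK cells, read 11.14 to 11.62 (median 11.37) on WT S1_S2 arrays and 11.67 to 12.14 (median 11.91) on WT S3 arrays. All S3 arrays lay above all S1_S2 arrays, and 6.68% of all clusters had no overlap in either direction. It rose by 0.53 ± 0.09 (SE), 1.44-fold, with a limma adjusted p of 9.52e-05. The difference was 0.69 within the first title-number range (limma adjusted p = 0.000592) and 0.34 within the second (adjusted p = 0.14). In Mst1KO cells the S1_S2 arrays read 11.76, 11.89, 11.75 and 11.85 and the S3 arrays 12.12, 12.06, 11.98, 11.92 and 11.95. The S3 arrays lay above the S1_S2 arrays there, where 14.1% of all clusters had no overlap. The difference was 0.2 (95% interval -0.02 to 0.41, limma adjusted p = 0.275) and did not pass the test.

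Cd40lg, whose product helps B cells and dendritic cells, read 9.58 to 10.18 (median 9.87) on WT S1_S2 arrays and 9.69 to 10.24 (median 10.11) on WT S3 arrays. The groups overlapped, and the difference was 0.14 (95% interval -0.05 to 0.33, limma adjusted p = 0.356). In Mst1KO cells, whose S1_S2 arrays read 9.82 to 10.17 and S3 arrays 9.95 to 10.47, it was 0.24 (0.01 to 0.47, limma adjusted p = 0.187). The dKOMst arrays read 9.6 and 9.71 at S1_S2 and 9.49 at S3. Crtam, a receptor of activated cytotoxic cells, read 6.3 to 6.94 on all 25 arrays and above its own array's negative-control median on 19 of them. The other 8 measured genes read above it on all 25 arrays. No Crtam comparison passed the test, and at this signal a difference was not detectable.

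Within Mst1KO cells 2 of the 9 genes differed between the stages, Tnfrsf18 higher and Icos lower, against 10.2% of all clusters (5.58% higher, 4.62% lower). At an unadjusted limma p under 0.05 there were 4. Whether the stage step differed between Mst1KO and WT cells was tested directly, and 0 of the 9 genes passed (limma, 0.158% of all clusters called; 2 genes at an unadjusted p under 0.05). Those 2 were Cd226, whose step was 0.33 smaller in Mst1KO cells (difference -0.33, 95% interval -0.61 to -0.05, limma adjusted p = 0.443), and Cd28 (0.23, 95% interval 0 to 0.46, adjusted p = 0.521).

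**Figure D2:**
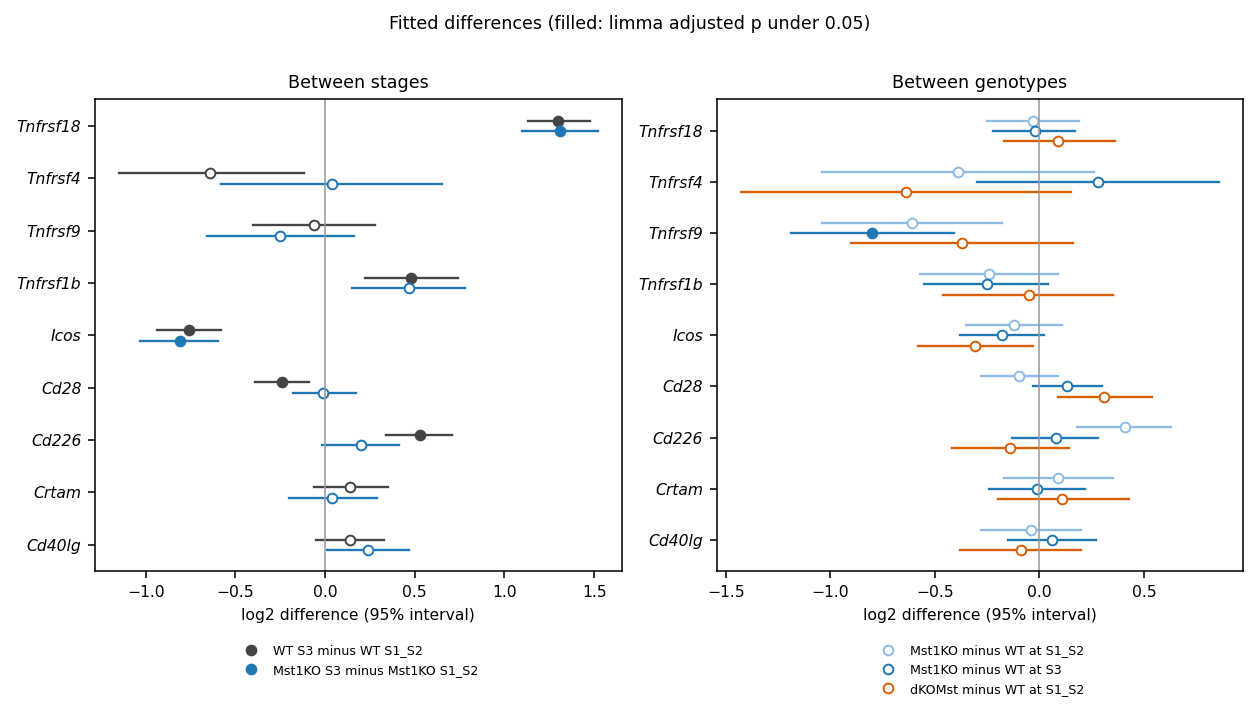
Fitted log2 differences of the 9 genes with 95% intervals, between the stages (left; WT and Mst1KO) and between genotypes (right; Mst1KO minus WT at each stage, dKOMst minus WT at S1_S2); filled points passed the limma test at an adjusted p under 0.05. On the left 5 WT and 2 Mst1KO points are filled, and on the right 1 is, Tnfrsf9 in Mst1KO S3 cells at -0.8.

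Tnfrsf9 was lower in Mst1KO than in WT S3 cells, and no other of the 9 genes passed the test at that stage. The Mst1KO S3 arrays read 7.5, 8.33, 7.85, 7.77 and 8.43, and the 7 WT S3 arrays 8.5 to 9.16 (median 8.82). All 5 Mst1KO arrays lay below all WT arrays, which 2.54% of all clusters did in either direction. Tnfrsf9 fell by 0.8 ± 0.19 (SE; 95% interval -1.19 to -0.41), 1.74-fold, with a limma adjusted p of 0.0143, and within the first title-number range the difference was -0.88 (adjusted p = 0.0191). In this comparison 6.37% of all clusters were called, and 2.64% were called lower. With any 1 array left out the adjusted p ran from 0.00767 to 0.0384. With only the arrays that have Y-linked signal the difference was -0.69 (limma adjusted p = 0.117), and with that signal as a term it was -0.69 (adjusted p = 0.051).

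The other receptor genes did not pass the test at S3 between Mst1KO and WT. Tnfrsf1b read 9 to 9.37 on Mst1KO arrays against 9.16 to 9.73 on WT arrays, a difference of -0.25 (95% interval -0.55 to 0.04, limma adjusted p = 0.288). Icos differed by -0.18 (95% interval -0.38 to 0.02, limma adjusted p = 0.274), and passed the test without WT S3 replicate 4, the lowest WT array at 11.4 (-0.3, adjusted p = 0.0197). Cd28 differed by 0.13 (-0.03 to 0.3), Cd226 by 0.08 (-0.13 to 0.28), Cd40lg by 0.06 (-0.15 to 0.27) and Tnfrsf4 by 0.28 (-0.3 to 0.86). The median difference was -0.01 over the 9 genes and -0.05 over all clusters.

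At S1_S2, 0 of the 9 genes passed the limma test between Mst1KO and WT, where 0.522% of all clusters did, and 2 had an unadjusted p under 0.05. These were Cd226 and Tnfrsf9. All 4 Mst1KO arrays read higher for Cd226 (11.75 to 11.89) than all 6 WT arrays (11.14 to 11.62), and groups did not overlap for 2.58% of all clusters. Its difference was 0.41 ± 0.11 (SE; 95% interval 0.18 to 0.63, limma adjusted p = 0.127), and 0.45 without the title-number term (adjusted p = 0.0393). For Tnfrsf9 the Mst1KO arrays read 8.15, 8.56, 8.18 and 8.01 against 8.46 to 9.4 in WT. Replicate 2 alone overlapped the WT arrays, and the difference was -0.61 ± 0.21 (SE; 95% interval -1.04 to -0.18, limma adjusted p = 0.292). The Tnfrsf9 difference at S3 was not shown to be other than that at S1_S2 (difference of differences -0.19, 95% interval -0.73 to 0.35, limma adjusted p = 0.855). The remaining intervals were -1.04 to 0.26 for Tnfrsf4, -0.57 to 0.09 for Tnfrsf1b, -0.35 to 0.11 for Icos, -0.28 to 0.09 for Cd28 and -0.28 to 0.2 for Cd40lg.

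In dKOMst S1_S2 cells, with 2 arrays, 0 of the 9 genes passed the limma test against WT (0.923% of all clusters called; 2 genes at an unadjusted p under 0.05). The lowest p was for Cd28, which read 10.47 and 10.36 against 10.01, 10.09 and 10.19 on the WT arrays of the same title-number range. Both were above those WT arrays, though not above all 6, and the difference was 0.31 (95% interval 0.09 to 0.54, limma adjusted p = 0.231). Icos, at 12.15 and 12.23, lay below all 6 WT arrays, with a difference of -0.31 (-0.58 to -0.03, limma adjusted p = 0.402). Tnfrsf4, at 8.39 and 8.47, also lay below all 6 WT arrays, with a wide interval of -1.43 to 0.15. Within that title-number range the groups did not overlap for 3 of the 9 genes and for 28.8% of all clusters. The share against all 6 WT arrays was not counted. For Tnfrsf9 the 2 arrays read 8.86 and 8.21, apart from each other, with a difference of -0.37 (-0.9 to 0.16).

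Double against single loss at S1_S2 was compared through the WT arrays of both title-number ranges. None of the 9 genes passed (0 called by limma, 0.171% of all clusters; 2 genes at an unadjusted p under 0.05). Cd226 read 11.12 and 11.25 on the dKOMst arrays, with a difference from Mst1KO of -0.55 (95% interval -0.88 to -0.21, limma adjusted p = 0.207). It was -0.63 without the title-number term (limma adjusted p = 0.0242), but there genotype and title-number range cannot be told apart. Cd28 differed by 0.41 (0.14 to 0.68, limma adjusted p = 0.272). These comparisons share arrays with those against WT.

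The dKOMst S3 group is 1 array and has no replicate check. Against the 3 WT S3 arrays of its title-number range, 6 of the 9 genes lay outside the WT values, and so did 52.5% of all clusters. Tnfrsf9 read 8.09 against 8.53 to 8.98, and Cd40lg 9.49 against 9.69 to 9.96. Both were also below all 7 WT S3 arrays, for which the share over all clusters was not counted. Icos (11.57) and Crtam (6.41) lay below those 3 arrays, and Cd28 (10.19) and Cd226 (11.93) above them.

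Ranked by group mean, Tnfrsf18 ran from dKOMst S3 (11.86) through WT S3 (11.7) and Mst1KO S3 (11.55) to dKOMst S1_S2 (10.65), WT S1_S2 (10.41) and Mst1KO S1_S2 (10.24). Only Mst1KO S3 and dKOMst S1_S2 were neighbours in that order whose arrays did not overlap. The group means in this paragraph are not adjusted for the title-number range, so their order mixes genotype and range. In the first range, which holds all Mst1KO arrays, WT Tnfrsf18 means were 11.57 at S3 and 10.26 at S1_S2. In the second, which holds all dKOMst arrays, they were 11.86 and 10.57. Icos ran the other way by stage, from WT S1_S2 (12.56) and Mst1KO S1_S2 (12.51) through dKOMst S1_S2 (12.19) to WT S3 (11.82), Mst1KO S3 (11.7) and dKOMst S3 (11.57). The dKOMst S1_S2 arrays were separate from both neighbours. For Tnfrsf9 the WT groups of both stages came first, from WT S1_S2 (8.87) and WT S3 (8.8) to dKOMst S3 (8.09) and Mst1KO S3 (7.97), with overlap at each neighbouring step. Cd226 was highest in Mst1KO S3 cells (12.01) and lowest in dKOMst S1_S2 cells (11.18), with a gap between Mst1KO S1_S2 (11.81) and WT S1_S2 (11.37). Tnfrsf4 and Tnfrsf1b overlapped at each neighbouring step. How often neighbours in such an order were separate over all clusters was not counted.

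The lists of pathway genes that follow were put together with earlier results of these data known, so their counts are descriptions. Beside them, 8.18% of all clusters were called higher and 8.75% lower at WT S3. Against WT, 6.37% of all clusters were called in Mst1KO S3 cells, 0.522% in Mst1KO S1_S2 cells and 0.923% in dKOMst S1_S2 cells. Among 13 genes of ligands for the receptors, all measured, 2 were higher and 2 lower at WT S3. Icosl, the gene of the ICOS ligand, rose by 2.01 ± 0.27 (SE), from 6.48 to 7.45 on S1_S2 arrays to 7.85 to 9.7 on S3 arrays, while Icos itself fell. Pvr, the gene of CD155, a ligand of DNAM-1, rose by 1.05 ± 0.11 (SE) together with Cd226. The ligand falls were Tnfsf18 and Tnfsf4, neither well above the negative controls at these stages. Tnfsf18, the GITR ligand, read above its array's negative-control median on 1 of 6 WT S1_S2 and 0 of 7 WT S3 arrays, so no fold is given. On the Mst1KO S1_S2 arrays it read 6.68 to 7.35, above that median on 4 of 4, and on 0 of 5 at S3. The log2 difference there was at least 0.55, counted against the higher of the control median and the gene's own value (limma adjusted p = 4.04e-06).

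Of 24 measured genes of TRAF and NF-kB signalling (28 listed), 8 were higher and 2 lower at WT S3, with a median of 0.19 against 0.01 over all clusters. Tnfaip3, the gene of the NF-kB inhibitor A20, rose by 0.94 ± 0.1 (SE), and Tank, a TRAF-binding protein, fell by 0.65 ± 0.11. In Mst1KO S3 cells 3 of these genes rose and 0 fell against WT, where 829 of all 22206 clusters rose and 586 fell. Traf1, an adaptor that binds 4-1BB and is itself an NF-kB target, rose by 0.8 ± 0.15 (SE; limma adjusted p = 0.00251), from 8.24 to 9 on WT arrays to 8.67 to 9.68, in the cells in which Tnfrsf9 fell. Nfkbia rose by 0.31 ± 0.09 (SE). In dKOMst S1_S2 cells 1 rose, Map3k14, the kinase NIK, by 0.59 ± 0.14 (SE).

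Of 17 measured genes of CD28 and ICOS signalling (23 listed), 4 were higher and 0 lower at WT S3, among them Tec, a tyrosine kinase (0.85 ± 0.19), and Pik3cd, the catalytic p110 delta subunit (0.57 ± 0.07, SE). None was called between Mst1KO and WT at either stage. Of 8 inhibitory counterparts, 3 were higher and 2 lower at WT S3. Cd160 rose by 1.43 ± 0.1 and Pdcd1, the gene of PD-1, fell by 1.48 ± 0.25 (SE). In Mst1KO S3 cells 2 of the 8 fell and 0 rose against WT, Cd160 (by 0.68 ± 0.12, SE) and Tigit. Tigit shares the ligand CD155 with DNAM-1, and it read above the negative-control median on 7 of 7 WT S3 arrays but on 1 of 5 Mst1KO S3 arrays. It was lower there by at least 0.63 on the log2 scale, counted against the control median as before (limma adjusted p = 0.0119). At S1_S2 it did so on 0 of 6 WT arrays, so its rise to WT S3 was at least 0.78 on the log2 scale (limma adjusted p = 4.7e-06). In Mst1KO S1_S2 cells 1 of the 8 rose, Cd96, another receptor of that ligand, by 0.43 ± 0.1 (SE; limma adjusted p = 0.041).

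**Figure D3:**
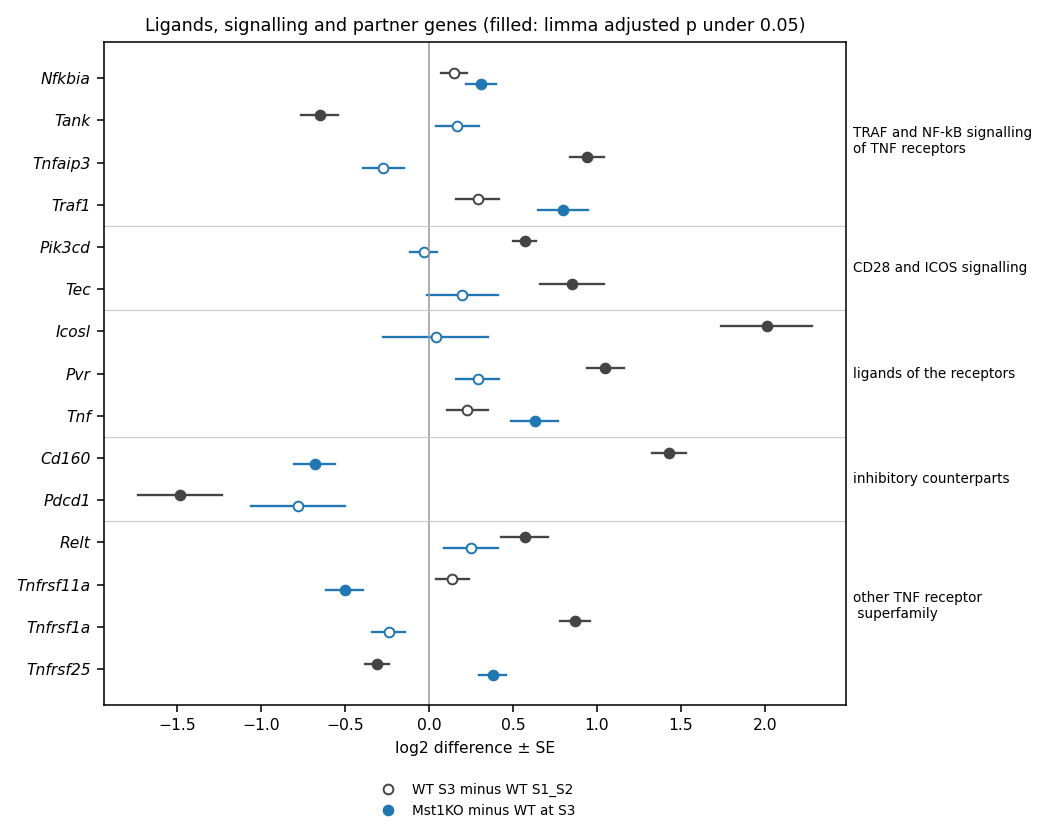
Fitted log2 difference ± SE of 15 ligand, signalling and partner genes picked by a rule from 5 lists and measured above the negative controls on all arrays, for WT S3 minus WT S1_S2 (grey) and Mst1KO minus WT at S3 (blue); filled points passed the limma test at an adjusted p under 0.05. Icosl, Cd160 and Pvr have the highest differences between the WT stages, Pdcd1 has the lowest, and Traf1 and Tnf are the highest between Mst1KO and WT.

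Tnf, the ligand of TNF receptor 2, was the 1 ligand that rose in Mst1KO S3 cells against WT, by 0.63 ± 0.14 (SE; limma adjusted p = 0.00816), and it rose in dKOMst S1_S2 cells by 0.76 ± 0.18 (SE; limma adjusted p = 0.0485). Of the 23 other genes of the TNF receptor superfamily, 2 were higher and 1 lower at WT S3. Tnfrsf1a, the other TNF receptor, rose by 0.87 ± 0.09 and Relt by 0.57 ± 0.14 (SE). In Mst1KO cells Tnfrsf25, the gene of death receptor 3, rose by 0.56 ± 0.09 (SE) at S1_S2 and by 0.38 ± 0.08 at S3, and Tnfrsf11a, the gene of RANK, fell by 0.5 ± 0.11 at S3.

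Markers of other cells and of iNKT subsets were measured beside these results. The shares over all clusters given with the pathway lists apply beside their counts as well. All 11 NKT1 markers were higher and all 10 measured NKT2 markers lower at WT S3 (medians 2.32 and -1.69), in the comparison in which the 5 receptor genes changed. The NKT1 list includes Klrb1c, the gene of NK1.1, by which the stages were sorted, so its rise was set by the sort. The mean of 14 NKT17 markers was 9.51 to 9.69 on Mst1KO S1_S2 arrays against 8.59 to 9.26 in WT. On Mst1KO S3 arrays it was 8.68 to 9.26 against 7.35 to 8.84 in WT. Between Mst1KO and WT, 0 of these 14 markers were called at S1_S2, and 2 were called higher and 0 lower at S3. The mean of the 10 NKT2 markers was 10.9 to 11.1 on Mst1KO S1_S2 arrays against 11.3 to 11.6 in WT. On S3 arrays it was 9.43 to 9.78 against 9.26 to 9.97. At S1_S2, 2 of them were called lower and 0 higher, and at S3 3 lower and 1 higher. Of the 11 NKT1 markers, 2 were called higher and 0 lower at each stage. The part of these subset markers in the Cd226 and Tnfrsf9 values was not tested. Of 14 immediate early and activation genes, 4 rose at S1_S2 and 5 rose and 1 fell at S3 in Mst1KO cells, Jun and Fosb among the rises at both stages, and their part was not tested either. Of the regulatory T cell markers, which matter because such cells carry GITR and OX40, 4 of 6 were measured. Ikzf2 and Ikzf4 read above the negative-control median on all 25 arrays, and Il2ra and Lrrc32 on none. None of the 4 was called between the WT stages, and Ikzf4 fell in Mst1KO S3 cells by 0.45 ± 0.1 (SE; limma adjusted p = 0.00755), the comparison in which Tnfrsf9 fell. The mean of the 4 was 6.51 to 6.67 on those arrays against 6.75 to 7.04 on WT S3 arrays.

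Of 4 measured NK cell markers, 2 were higher at WT S3, where Tnfrsf18, Cd226 and Tnfrsf1b rose, and the list mean was 6.65 to 7.18 against 6.16 to 6.5 at S1_S2. In Mst1KO S3 cells (6.62 to 7.28) 2 of the 4 were higher and 1 lower than in WT. Itga2, an integrin subunit, rose in both comparisons, by 0.71 ± 0.15 and 0.76 ± 0.17 (SE), while Klrg1 read above the negative-control median on no array. Ncr1 read above that median on 4 of 7 WT S3 arrays and on 0 of 5 Mst1KO S3 arrays. Eomes did so on 1 of 7 WT S3 arrays and on 3 of 5 Mst1KO S3 arrays. Of 7 myeloid and dendritic markers, 2 were higher at WT S3 and 0 were called against WT in Mst1KO cells at either stage, while 2 were higher in dKOMst S1_S2 cells, with list means of 7.02 to 7.32 on WT S1_S2 arrays, 7.25 to 7.54 on WT S3 arrays and 7.27 to 7.46 on Mst1KO S3 arrays. Of 6 markers of double-positive thymocytes, 1 was higher and 1 lower both at WT S3 and in Mst1KO S3 cells, where Cd8b1 rose by 0.73 ± 0.18 and Cd4 fell by 0.47 ± 0.11 (SE). Their list mean was 7.87 to 8.15 on Mst1KO S3 arrays against 7.38 to 7.92 on WT S3 arrays. Of 2 measured gamma-delta T cell markers, Cd163l1 fell at WT S3 by 0.98 ± 0.11 and rose in Mst1KO cells by 0.77 ± 0.14 at S1_S2 and 0.82 ± 0.12 at S3 (SE), while Sox13 fell at S1_S2 by 0.67 ± 0.14. No marker of B cells, thymic epithelium or erythroid cells was called between the WT stages or between Mst1KO and WT at either stage (limma, adjusted p under 0.05). The part of these markers in the receptor values was not tested.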

How the data were processed

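RNA of sorted thymic iNKT cells was amplified and biotinylated with NuGEN kits for Clariom S mouse arrays, per the labels' protocols. The deposited values are log2 levels that, per the submitters' processing notes, the authors made by RMA (Affymetrix Expression Console 1.1). Other tools and the build were not given in the sources used here. They were used as deposited. Of 28846 items, 6640 controls were left out. Linear models (limma 3.58.1, R 4.3.3; lmFit, eBayes) with 6 group means and a title-number term were fitted to 22206 clusters and left 18 residual degrees of freedom. P-values were adjusted by Benjamini-Hochberg over all clusters and called under 0.05. The genes and all lists were chosen with earlier results of these data known. From each list up to 2 called genes with the largest change per comparison are named, and some of these are not discussed. The Tnfsf18, Tnfsf4 and Tigit levels were singled out after seeing them. Likeness was given for genes whose group means spanned at least 1. The promoters are RefSeq's (Python 3.11.15). The fit was tested on simulated data.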

Additional observations from a re-analysis of the deposited data

Results flagged for a closer look

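In Mst1KO S1_S2 cells, Icos on replicate 1 read 12.41, below the other 3 arrays at 12.54 to 12.55, with a gap of 0.912 of the group's range. It was 1 such array among 36 groups of values tested, and chance gives about 1 in 20 groups.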

How the results depend on the processing

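The labels carry no replicate numbers and do not say which arrays belong together. The title numbers of S1_S2 and S3 arrays run at a constant offset within each title-number range, though not the same offset in both, which forms 11 pairs. The pairing was tried after seeing the data. In 10 of the 10 pairs that could be tested, the S1_S2 array's deviations from the mean of its group and title-number range correlated best with its own partner among the S3 arrays of that genotype and range, weakly (r 0.0562 to 0.171, over 0.1 in 4), a hint from the data and not from the design. With the replicate block over paired arrays 6 genes were called between the WT stages, Tnfrsf4 being added (-0.39, limma adjusted p = 0.0444; lower in 5 of 6 pairs), 2 between the Mst1KO stages and 0 for the difference of genotype effects (over all clusters 9 calls against 35). WT S3 replicate 3, the lowest Tnfrsf4 array at 7.23, has no partner and was not in that fit, so the Tnfrsf4 call also rests on fewer arrays. Tnfrsf1b was higher at S3 in 6 of 6 WT pairs, by 0.15 to 0.8. Of 2616 results recomputed under alternatives, 2572 stayed on their side of the threshold or within 1.5 times their count. Most of these were differences not called as reported. Of the calls between the WT stages, Cd28 was lost with 1 array left out and in 4 other settings. Tnfrsf1b was lost in 3 settings, Cd226 in 2, Icos in 1 and Tnfrsf18 in 0. Tnfrsf9 in Mst1KO S3 cells was lost in 3. No called difference changed sign. Differences that were not called did so in 69 of 2351 single-gene values, such as Tnfrsf9 between the WT stages (0.14 in the first title-number range alone). The 5 genes called between the WT stages became 3 in the first title-number range alone, 2 in the second alone and 1 with a minimum change of 1.5-fold, and 4 to 6 with any 1 array left out. The 1 gene called in Mst1KO S3 cells became 0 with that minimum, with arrays that have Y-linked signal only and with that signal as a term, and 1 to 2 with 1 array left out. The 0 called in Mst1KO S1_S2 cells, and the 0 between dKOMst and Mst1KO, became 1 without the title-number term. The 2 called between the Mst1KO stages became 1 with the 1.5-fold minimum, and 2 to 3 with 1 array left out. The 6 genes outside WT on the dKOMst S3 array became 2 against all WT S3 arrays and 0 by the limma test, in which the lone array is assumed to vary like the other groups. The 1.5-fold minimum asks more of each gene; the causes of the other shifts were not tested. Over all clusters, calls ran from 493 to 3852 between the WT stages (3760 as reported), from 13 to 1649 in Mst1KO S3 cells (1415), from 3 to 174 in Mst1KO S1_S2 cells (116), from 15 to 343 in dKOMst S1_S2 cells (205), from 232 to 3107 between the Mst1KO stages (2266), from 0 to 61 for the difference of genotype effects (35) and from 2 to 195 between dKOMst and Mst1KO (38), the lowest each time with the 1.5-fold minimum. Reading each gene from its lowest-mean cluster was not run, since each has 1 cluster. Signal near the negative controls limits Crtam.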
